A study of Homo sapiens with 3 samples.

Results

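The WNT genes described here are 56 genes of the 62754 in each gene table: 19 WNT ligands, 10 frizzled (FZD) receptors, the coreceptors LRP5 and LRP6, the signal-transducing genes CTNNB1, GSK3A, GSK3B and AXIN1, the 4 TCF/LEF factors, 6 feedback genes, 5 secreted antagonists, and 4 R-spondins with the receptors LGR4 and LGR5. They were taken by symbol from a list of the pathway, all 56 were found once, and the rule that takes them uses no measured value, though the list was drawn up with earlier results of these data known. The cells were wild-type primitive neural progenitor cells (pNPCs), an early neural stage, made from 1 line of human embryonic stem cells, H1, and the labels give 1 group of 3 replicates. Per the labels, pNPC medium held N2 and B27-RA supplements, FGF2, the GSK3 inhibitor CHIR99021, leukemia inhibitory factor, SB431542, which blocks TGF-beta type I receptors, and the ROCK inhibitor Y-27632. All 3 libraries share these conditions, and no library from medium without CHIR99021 was analysed here, so each value below is a level under GSK3 inhibition and none is a response to it. Nothing in the labels shows that the replicates were grown separately, so the spread between them may be technical.

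WNT ligands bind a frizzled receptor together with LRP5 or LRP6. Binding halts a destruction complex of AXIN, APC and the kinase GSK3 that otherwise marks beta-catenin, the product of CTNNB1, for breakdown, and the stabilised protein turns TCF/LEF factors into activators of target genes. A GSK3 inhibitor acts at the same step without a ligand. Many of the targets (AXIN2, RNF43, ZNRF3, NKD1, NOTUM, DKK1) restrain the pathway, and in the early neural tube WNT signals favour posterior and dorsal fates and neural crest.

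Totals lay between 30038114 and 38400092 expected counts, the estimated reads per gene, and the 56 genes took 0.258% to 0.295% of them. Levels are given in TPM, which scales reads for transcript length and library size, and a gene is called detected when each of the 3 libraries gives it 1 TPM or more. At that level a member of median effective length held 55.6 to 76.8 counts. Of 10 neural progenitor markers 8 were detected, with PAX6 at 0.13 to 0.81 TPM and HES5 at 0.72 to 6.76 TPM as the others, and all 6 neural crest and all 6 mesenchyme markers were detected too. Of 4 pluripotency markers POU5F1, NANOG and TDGF1 did not exceed 0.14 TPM, but DPPA4 was detected at 18.6, 21.0 and 26.4 TPM. Of 4 microglial markers C1QA and TYROBP had 0 counts in every library, CSF1R had at most 1, and AIF1 had 0.56 to 1.73 TPM from 3 to 13 counts. The summed mesenchyme markers were lowest in replicate 1, at 430.5, 1029 and 717.9 TPM in replicates 1, 2 and 3, and the summed neuronal markers were highest there, at 1055, 641.8 and 564.8 TPM.

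In total 39 of the 56 genes (69.6%) were detected, against 62.2% of protein-coding genes and 23.0% of all genes in the tables. The median level over all 56 was 2.92 log2(TPM + 1), close to 2.86 for all protein-coding genes. The repertoire was uneven by role. All 10 frizzled genes, both coreceptors, the 4 signal-transducing genes, the 4 TCF/LEF genes and the 6 feedback genes were detected, whereas 8 of 19 ligands and 1 of 6 R-spondin and LGR genes were. In bulk RNA, fewer cells of a type and less RNA per cell cannot be told apart, so a low level may belong to few cells or to many. Expected counts of 28 of the 39 (71.8%, against 62.3% of detected protein-coding genes) were exactly whole in all 3 libraries, and those of 11 had a fractional part in at least 1.

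**Figure D1:**
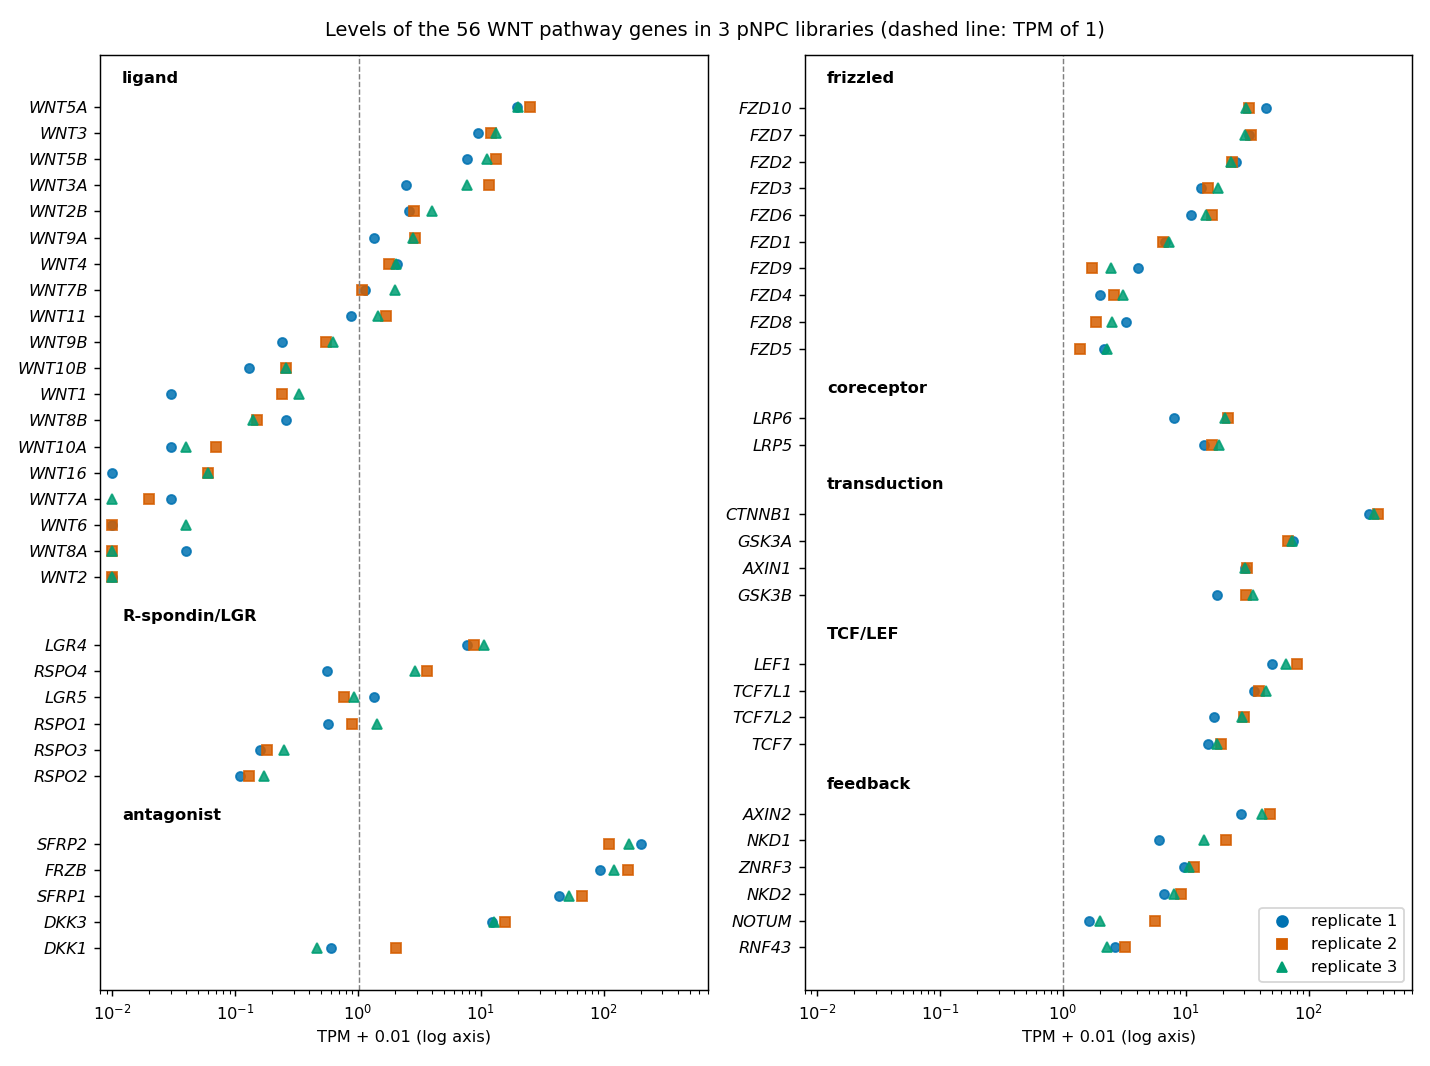
TPM + 0.01 on a log axis for each of the 56 genes, by role, with 1 point for each of the 3 libraries and a dashed line at a TPM of 1. All frizzled, TCF/LEF and feedback genes lie to the right of the line in every library, while 11 of 19 ligands have at least 1 library to its left.

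WNT5A (ENSG00000114251.15, chromosome 3, 55465715 to 55505263, GRCh38), a ligand best known for signalling outside the beta-catenin branch, was the highest ligand gene. It stood at 19.5, 25.3 and 20.1 TPM in replicates 1, 2 and 3, the highest ligand in each library. Its close relative WNT5B followed in the same order of libraries, at 7.72, 13.1 and 11.2 TPM. Together these 2 genes held 52.1% ± 4.76 of the summed ligand TPM (SD, n = 3).

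WNT3 and WNT3A, both ligands of the beta-catenin branch, held a further 29.7% ± 4.11. WNT3 (ENSG00000108379.11) varied little, with 9.49, 12.1 and 13.3 TPM. WNT3A (ENSG00000154342.6, chromosome 1, 228006998 to 228061271), a ligand of the dorsal neural tube and paraxial mesoderm, had 2.44, 11.6 and 7.76 TPM from 172, 825 and 430 counts. Replicate 1 was thus far below the others for WNT3A, and its share of the ligand sum was 5.10%, 15.7% and 11.7%. In the order of mean TPM, WNT3 and WNT5B changed places between libraries (difference 0.13 ± 0.21 log2(TPM + 1), SD, n = 3), as did WNT3A and WNT2B (0.82 ± 0.88), WNT2B and WNT9A (0.33 ± 0.32), and WNT9A and WNT4 (0.13 ± 0.47), so the order of these neighbours was not fixed.

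The other detected ligands were low. WNT2B stood at 3.14 ± 0.76 TPM (mean ± SD, n = 3), WNT9A at 2.33 ± 0.86, WNT4 at 1.97 ± 0.16 and WNT7B, just above the detection limit, at 1.13, 1.06 and 1.98 TPM. Exons of WNT2B share 2661 bases with ST7L on the opposite strand and its counts were not whole numbers in any library, as happens where reads are divided between genes. ST7L had 615 to 805 counts, beside 360 to 645 for WNT2B. WNT11, which acts in cell movements outside the beta-catenin branch, fell just outside the limit at 0.87, 1.68 and 1.45 TPM. WNT1 (ENSG00000125084.13), the ligand of the midbrain border and dorsal midline, had 1, 13 and 14 counts, or 0.020, 0.23 and 0.32 TPM.

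The other ligand genes were low too. WNT9B, above WNT1 in mean level, had 0.23, 0.54 and 0.62 TPM from 28, 49 and 44 counts. WNT10B and WNT8B, the latter a ligand of the dorsal forebrain, reached at most 0.25 TPM from at most 13 counts. WNT10A, WNT16, WNT7A, WNT6 and WNT8A had between 0 and 4 counts in any library. WNT2 had no count in any of the 3 libraries. Taking 3 counts as the limit for a count of 0, its level could be up to 0.0770 TPM in whichever library gives most (the exact Poisson 95% interval used for other counts ends at 3.69). Such intervals and floors cover counting error only.

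The frizzled repertoire was broad, and FZD10, FZD7 and FZD2 had the highest TPM. These genes encode the receptors that bind WNT through a cysteine-rich outer domain. FZD10 (ENSG00000111432.5, chromosome 12, 130162464 to 130165740), a receptor of the dorsal neural tube, had 45.4, 33.0 and 31.1 TPM. FZD7 (ENSG00000155760.3, chromosome 2, 202033855 to 202038441) had 33.0, 33.8 and 30.6 TPM, and FZD2 had 25.8, 24.0 and 23.3 TPM. FZD10 was above FZD7 in 2 of 3 libraries only (difference 0.15 ± 0.26), whereas FZD7 was above FZD2 in all 3 by 0.40 ± 0.071 log2(TPM + 1). The 3 genes together held 66.8% ± 4.14 of the summed frizzled TPM. Their lead was lost without length scaling: by share of expected counts FZD3 held 30.6% and FZD10 16.2%.

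FZD3 at 15.5 ± 2.56 and FZD6 at 13.9 ± 2.77 TPM, a pair with roles in planar cell polarity, came next and could not be ordered (FZD3 higher in 2 of 3 libraries, difference 0.15 ± 0.23). FZD1 stood at 6.88 ± 0.37 TPM. The remaining receptors, FZD9, FZD4, FZD8 and FZD5, lay between 1.37 and 4.07 TPM in every library, and among neighbours in mean level only FZD8 and FZD5 kept their order in all 3. FZD1, FZD2 and FZD7 are close relatives, but counts of FZD1 were whole in all 3 libraries and those of FZD2 and FZD7 had a fractional part in replicates 1 and 2. FZD4 had fractional counts in all 3 libraries, and its exons share 1399 bases with PRSS23 on the opposite strand. PRSS23 had 1873 to 2607 counts, beside 361 to 478 for FZD4. Summed over the family, frizzled TPM was 146.6, 136.2 and 135.5 in replicates 1, 2 and 3, while summed ligand TPM was 47.8, 73.7 and 66.1. Thus the frizzled sum barely moved, and the ligand sum was lowest in replicate 1.

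**Figure D2:**
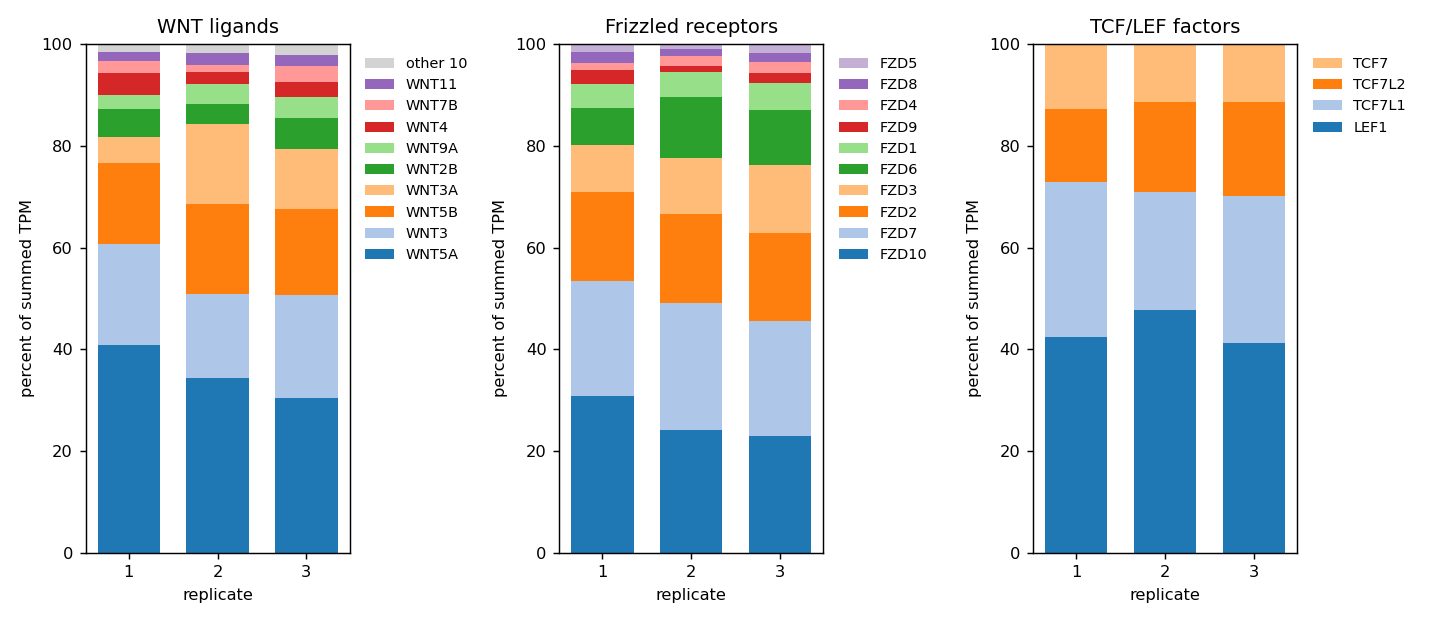
Percent of summed TPM taken by each gene of the WNT ligand, frizzled and TCF/LEF families in replicates 1, 2 and 3, with each bar adding up to the whole family. WNT5A is the widest ligand segment in each bar (30.5% to 40.8%), the bottom 3 frizzled segments are FZD10, FZD7 and FZD2, and LEF1 takes 41.3% to 47.7% of TCF/LEF.

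The coreceptor genes LRP5 and LRP6, which encode the partners of frizzled that recruit AXIN, could not be ordered. LRP5 had 14.2, 16.5 and 18.7 TPM, and LRP6 (ENSG00000070018.9, chromosome 12, 12116025 to 12267044) had 8.02, 22.2 and 21.0 TPM. LRP6 was below LRP5 in replicate 1 and above it in the others, with a mean difference of -0.061 ± 0.61 log2(TPM + 1) over all libraries, 0.28 without replicate 1, and 1.15 without length scaling, in log2(CPM + 1). Beta-catenin itself, CTNNB1 (ENSG00000168036.18, chromosome 3, 41199505 to 41240443), was the most abundant of the 56 genes, at 308.3, 370.2 and 339.5 TPM, above 98.2% of protein-coding genes by mean TPM. Its transcript level says nothing of how much protein was stabilised.

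Both genes of the kinase that CHIR99021 inhibits were detected. GSK3A had 74.5, 68.5 and 73.4 TPM, and GSK3B had 17.9, 31.0 and 35.1 TPM, so that GSK3A was higher in each library. The GSK3B minus GSK3A difference was -1.39 ± 0.53 log2(TPM + 1), but without length scaling, in log2(CPM + 1), it turned to 0.40. GSK3B transcripts were longer than those of GSK3A (5597 to 6502 bases against 1812 to 1904 as weighted in the tables). AXIN1, the scaffold of the destruction complex, had the smallest ratio of highest to lowest TPM of the 39 detected members (1.04), at 30.3, 31.3 and 30.1 TPM. Its relative AXIN2, a target of the pathway that serves the same complex, had 28.0, 48.4 and 42.0 TPM. The AXIN2 minus AXIN1 difference was -0.11, 0.61 and 0.47 in replicates 1, 2 and 3, so the order of the pair was not fixed.

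All 4 TCF/LEF genes were expressed. These encode DNA-binding partners of beta-catenin, with TCF7L1 (also called TCF3) known mainly as a repressor and LEF1 and TCF7 mainly as activators. LEF1 (ENSG00000138795.10, chromosome 4, 108047548 to 108168932) led with 50.4, 80.9 and 64.9 TPM, followed by TCF7L1 (ENSG00000152284.5) with 36.0, 39.5 and 45.3 TPM. TCF7L2 (ENSG00000148737.18) had 17.1, 29.9 and 28.9 TPM, and TCF7 (ENSG00000081059.20) had 15.1, 19.3 and 17.9 TPM.

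The order LEF1, TCF7L1, TCF7L2, TCF7 was the same in all 3 libraries. Differences between neighbours were 0.67 ± 0.30, 0.69 ± 0.32 and 0.48 ± 0.27 log2(TPM + 1), each larger than its SD. As shares of the summed TPM, LEF1 held 43.8% ± 3.40, TCF7L1 27.5% ± 3.72, TCF7L2 16.8% ± 2.11 and TCF7 11.8% ± 0.80. The lead of LEF1 was lost without length scaling. By share of expected counts TCF7L1 held 33.9% and LEF1 31.1%, and LEF1 transcripts were shorter (1716 to 1815 bases) than those of TCF7L1 (2886 to 2952 bases). LEF1 shares 279 exonic bases with LEF1-AS1 on the opposite strand, which itself had 19.0 to 38.3 counts, few beside the 1914 to 3266 of LEF1. TCF7 shares 210 with SKP1 on the opposite strand, which had 4044 to 5753 counts, beside 996 to 1297 for TCF7. Counts of TCF7 were whole in all 3 libraries.

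Feedback genes, which dampen the pathway, were all detected, and all but NKD2 are also on the list of beta-catenin targets used below. AXIN2 (ENSG00000168646.14, chromosome 17, 65528563 to 65561648) was the highest at 39.4 ± 10.4 TPM. Its counts were fractional in all 3 libraries, and its exons share 1316 bases with AC004805.1 on the same strand, which had 2.4 to 3.3 counts. The ubiquitin ligase gene ZNRF3, whose product removes frizzled from the cell surface, had 9.65, 11.6 and 10.6 TPM, and its relative RNF43 had 2.64, 3.19 and 2.26 TPM. ZNRF3 exceeded RNF43 by 1.65 ± 0.15 log2(TPM + 1), in 3 of 3 libraries. Exons of RNF43 overlap those of 3 other annotated genes, and its counts were fractional in 2 libraries. On the same strand, AC004687.2 shares 4326 bases and had 0, 12.2 and 10.3 counts. SUPT4H1, also on the same strand, shares 143 bases and had 2188, 2196 and 1558 counts, beside 277, 336 and 180 for RNF43. TSPOAP1-AS1 lies on the opposite strand.

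NKD1 (ENSG00000140807.7, chromosome 16, 50548396 to 50649249) and NKD2 encode inhibitors of dishevelled. NKD1 had 6.06, 21.3 and 14.1 TPM from 2456, 8765 and 4491 counts, a 3.52-fold range, while NKD2 had 6.68, 9.08 and 8.02 TPM. NKD1 was therefore above NKD2 in replicates 2 and 3 and below it in replicate 1. NOTUM, an enzyme gene whose product removes the lipid from WNT, had 1.61, 5.65 and 1.99 TPM from 73, 277 and 73 counts. Replicate 2 was well above the others, but NOTUM was not called in the test of spread given below, as first set (adjusted p = 0.209, edgeR).

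Secreted antagonists of the frizzled-related type were among the most abundant members. SFRP2 (ENSG00000145423.5, chromosome 4, 153780591 to 153789083) had 201.7, 110.5 and 158.8 TPM, and FRZB (ENSG00000162998.5, chromosome 2, 182833275 to 182866637) had 93.7, 157.9 and 120.6 TPM. SFRP1 had 43.4, 66.2 and 51.7 TPM. Their products carry a frizzled-like domain that binds WNT outside the cell. SFRP2 was highest in replicate 1 and lowest in replicate 2, and FRZB and SFRP1 showed the reverse, so the order of SFRP2 and FRZB was not fixed (difference 0.33 ± 0.81). The sum of the 3 genes was nonetheless nearly constant, at 338.9, 334.6 and 331.1 TPM, which is 2.31, 2.46 and 2.44 times the frizzled sum and 7.08, 4.54 and 5.01 times the ligand sum.

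The dickkopf gene DKK3, whose product does not act on LRP6 as its relatives do, had 12.3, 15.6 and 12.7 TPM. DKK1 (ENSG00000107984.10), a classic inhibitor of LRP6 and a beta-catenin target, was not detected in all libraries, with 0.59, 2.04 and 0.45 TPM. These levels came from 24 counts (exact Poisson 95% interval 15.4 to 35.7), 56 (42.3 to 72.7) and 11 (5.49 to 19.7). The interval of replicate 2 lay above those of the others, but such intervals are not scaled for library size and cover counting error only. In the test of spread given below, as first set, DKK1 was not called (adjusted p = 0.520, edgeR). Exons of DKK1 share 212 bases with PRKG1-AS1 on the opposite strand, which held 1 to 3 counts.

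R-spondins, which raise WNT signalling by clearing ZNRF3 and RNF43 through LGR receptors, were scarce. LGR4 (ENSG00000205213.14) was the only gene of this group detected, at 7.72, 8.70 and 10.7 TPM. The stem cell marker LGR5, another target, lay at the limit with 1.35, 0.76 and 0.91 TPM, and LGR4 exceeded it by 2.32 ± 0.38 log2(TPM + 1). RSPO4 had 0.55, 3.66 and 2.91 TPM from 31, 211 and 124 counts, and counts as detected once replicate 1 is left out, which raises the group from 1 to 2 of 6. The group numbers 4 of 6 at a minimum of 0.5 TPM and 5 of 6 at an expected count of at least 10. RSPO1 reached 0.56, 0.89 and 1.41 TPM, while RSPO3 and RSPO2 stayed at or below 0.24 TPM.

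Over the 21 pairs of related genes compared within a library, 17 kept 1 sign in all 3 libraries and 4 did not (LRP6 and LRP5, AXIN2 and AXIN1, NKD1 and NKD2, FZD3 and FZD6). The largest differences were FZD10 over FZD9 by 3.35 ± 0.25, DKK1 below DKK3 (-2.92 ± 0.41), LGR4 over LGR5, and FZD1 below FZD7 (-2.08 ± 0.14 log2(TPM + 1)). For each of the 17, p was 0.25 in a two-sided, exact permutation test by sign flips over libraries (the smallest that n = 3 allows), with a Benjamini-Hochberg value of 0.309 over the 21 pairs, so none could pass a threshold of 0.05. Apart from GSK3B and GSK3A and from LRP6 and LRP5, already given, FZD5 minus FZD8 also changed sign without length scaling, from -0.27 to 0.39.

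**Figure D3:**
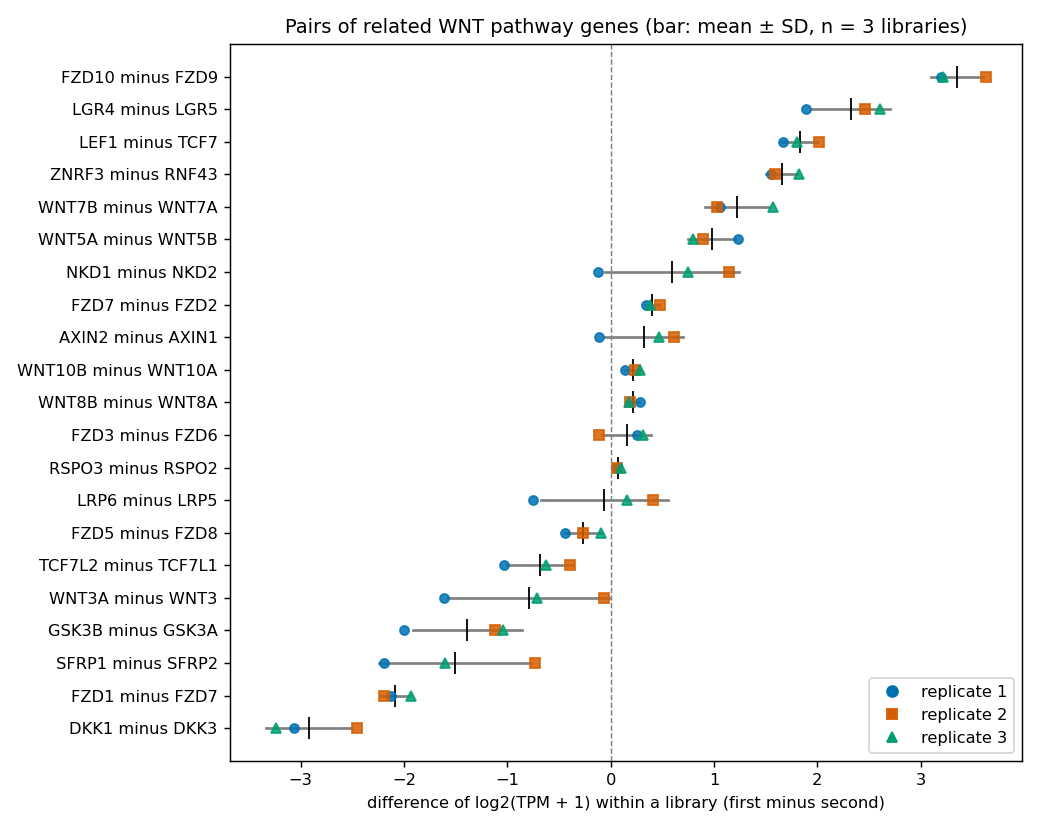
Difference of log2(TPM + 1) between the first and the second gene of 21 related pairs within each library, with points for replicates 1, 2 and 3, a tick at the mean and a bar of ± 1 SD (n = 3). The points of 17 pairs lie on 1 side of the dashed line at 0, and those of LRP6 and LRP5, AXIN2 and AXIN1, NKD1 and NKD2, and FZD3 and FZD6 lie on both.

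Beta-catenin targets were taken as a list of 17 genes, 9 of them among the 56 (AXIN2, LEF1, TCF7, NKD1, RNF43, ZNRF3, NOTUM, LGR5, DKK1) and 8 others. In all 13 of the 17 were detected, against 62.2% of protein-coding genes. Of the others the highest were the cyclin gene CCND1, at 54.7, 82.6 and 68.6 TPM, and APCDD1, a membrane inhibitor of WNT, at 57.7, 95.9 and 46.3 TPM. Not detected were SP5, a transcription factor gene that answers directly to beta-catenin, at 1.08, 2.33 and 0.30 TPM, and the mesoderm gene TBXT, which did not exceed 0.060 TPM. Within 1 list of targets, levels thus ran from LEF1, APCDD1, CCND1, AXIN2 and TNFRSF19, at 28.0 TPM or more in each library, down to DKK1, SP5, LGR5 and TBXT, below 1 TPM in at least 1 library.

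Most detected targets were highest in replicate 2. All 7 detected targets among the 56 genes had their highest TPM in replicate 2, and 6 of the 7 their lowest in replicate 1, RNF43 being lowest in replicate 3. Over the whole list 12 of 13 were highest in replicate 2, against 34.0% of the 12354 detected protein-coding genes, with MYC, named for being the exception, at 11.3, 11.3 and 14.4 TPM. Lowest in replicate 1 were 9 of 13, a share near the 57.3% of these genes, while APCDD1, CD44 and RNF43 were lowest in replicate 3. Of all 39 detected members 21 (53.8%) were highest in replicate 2, and 18 (46.2%) were both lowest in replicate 1 and highest in replicate 2, against 24.5%.

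The count was 12 of 13 without replicate 1 (48.1% of all detected protein-coding genes were higher in replicate 2 than in 3). Without replicate 3 it was 12 of 13 too (66.7%). Neither omission could lower it, because a gene highest of all libraries in replicate 2 stays highest among those that remain. The count stayed at 12 of 13 in CPM without length scaling (27.0% of detected protein-coding genes were then highest in replicate 2). It fell to 9 of 13, against 29.8%, after each library was corrected for a dependence of counts on transcript length, with RNF43, ZNRF3, TNFRSF19 and MYC then highest elsewhere. These alternatives and the pattern itself were chosen after the data were seen. Mesenchyme markers moved the same way. All 6 were lowest in replicate 1 and 5 of 6 highest in replicate 2, with PRRX1 at 86.2, 294.1 and 238.7 TPM and COL1A2 at 184.7, 387.8 and 260.8 TPM, these and the markers below being named after their values were seen. Of the neural crest markers 3 of 6 were highest in replicate 2, whereas SOX10 (29.1, 22.4 and 15.2 TPM) and FOXD3 (7.17, 6.56 and 4.44 TPM) were highest in replicate 1. Neural progenitor markers were divided. SOX2, SOX1, SOX3, FABP7 and HES5 were highest in replicate 1 and lowest in replicate 2, with SOX2 at 97.8, 46.3 and 63.4 TPM, while 4 of the 10 were highest in replicate 2. The part of such cells in the order of the targets was not tested.

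**Figure D4:**
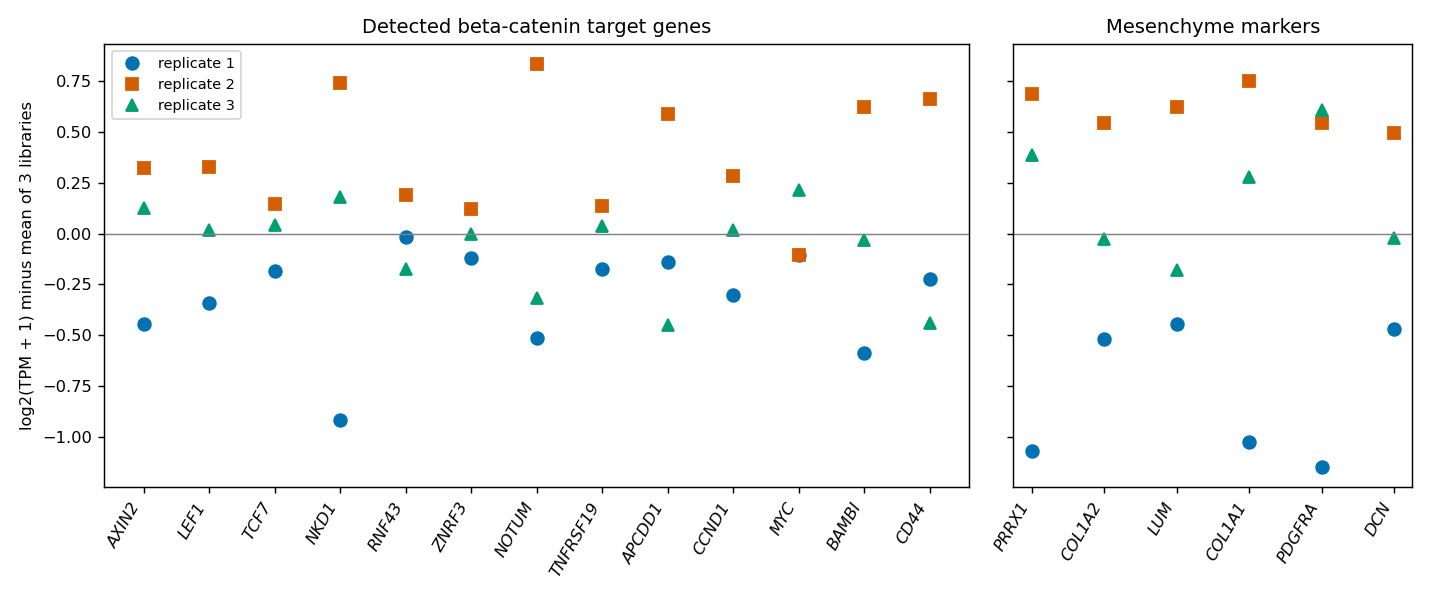
Deviation of log2(TPM + 1) from the mean of the 3 libraries for the 13 detected beta-catenin target genes (left) and the 6 mesenchyme markers (right), with 1 point for each library. Replicate 2 is the highest point for 12 of 13 targets, MYC being the exception, and for 5 of 6 mesenchyme markers, and replicate 1 is the lowest for all 6 mesenchyme markers.

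The 250 bases before the RefSeq starts (GRCh38.p14) of targets and members were searched for the core letters bound by TCF/LEF. The motifs were AACAAAG and ATCAAAG, together with TACAAAG and TTCAAAG, on both strands, and no 2 of them can match at the same position of a strand. Of 35116 promoters 11.96% held at least 1 match. The counts that follow are per gene and not per promoter. A gene with several entries held a match if any of them did, so these counts cannot be set beside that share. Among the 56 genes 39 had an entry, which left out AXIN2, NKD1, ZNRF3, LGR5 and NOTUM, and 3 of the 39 held a match. Of the 17 targets 10 had an entry, and 4 of the 10 held a match, namely DKK1, SP5, TBXT and TCF7. Their stretches are shown so that the position of the matches can be read, 5′ to 3′ along the gene's strand, with the matches in capitals, together with that of TCF7L2.
DKK1, chr10:52314159-52314238, plus strand: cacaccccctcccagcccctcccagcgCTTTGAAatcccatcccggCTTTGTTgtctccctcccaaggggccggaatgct
SP5, chr2:170715179-170715269, plus strand: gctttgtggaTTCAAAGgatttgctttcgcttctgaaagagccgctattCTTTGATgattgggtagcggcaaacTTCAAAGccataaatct
TBXT, chr6:166167897-166167976, minus strand: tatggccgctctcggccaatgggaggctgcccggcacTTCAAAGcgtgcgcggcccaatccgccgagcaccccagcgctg
TCF7, chr5:134123531-134123610, plus strand: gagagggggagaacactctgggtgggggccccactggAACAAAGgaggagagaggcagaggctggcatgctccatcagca
TCF7L2, chr10:113126463-113126542, plus strand: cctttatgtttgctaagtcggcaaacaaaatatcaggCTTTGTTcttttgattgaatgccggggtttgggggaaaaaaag

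The 3 matches of SP5 began 148, 109 and 84 bases before its start, and the 2 of DKK1 began 95 and 76 bases before. The match of TCF7 lay 50 bases before a start that is not its first, as did that of TCF7L2 at 133 bases and that of TBXT at 88 bases. LEF1, the highest of the 4 TCF/LEF genes by TPM, had no match in its window. Its entry, 108166252 to 108166551 on the minus strand, also belongs to a start that is not its first. The gene reaches to 108168932, and the bases before that end were not searched. SP5, DKK1 and TBXT, with 3, 2 and 1 matches, were below 1 TPM in at least 1 library. In replicate 2, however, SP5 reached 2.33 TPM and DKK1 2.04 TPM. TCF7, with 1 match, was detected at 15.1 TPM or more. A match is a run of letters and not a site of binding, and the absence of one concerns this window alone.

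A second list, of 46 other genes of the pathway, was mostly detected, 39 of 46, against 62.2% of protein-coding genes. Of the secretion genes, the WNT carrier gene WLS had 196.2, 360.4 and 223.9 TPM and PORCN, which adds the lipid to WNT, had 15.2, 11.1 and 14.6 TPM. All 12 genes of planar polarity and alternative receptors were detected, led by the receptor-like gene PTK7 at 101.2 ± 5.07 and VANGL2 at 61.0 ± 8.58 TPM. All 3 dishevelled genes were detected, with DVL2 at 76.5 ± 8.64 and DVL1 at 73.7 ± 7.24 TPM. So were all 7 genes of the destruction complex, led by the kinase gene CSNK1A1 at 115.9 ± 10.7 TPM and the tankyrase gene TNKS2 at 22.6 ± 6.83 TPM.

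All 10 nuclear cofactors were detected as well, with the corepressor gene CTBP1 at 141.5 ± 11.2 TPM and CTNNBIP1, an inhibitor of the contact between beta-catenin and TCF, at 102.9 ± 13.6 TPM. Of 12 further antagonists and receptors 5 were detected, with the heparan sulfate core protein gene GPC3 at 140.7, 240.4 and 176.3 TPM and TPBG at 41.8 ± 3.79 TPM. DKK2 at 0.86 to 3.26 TPM and WIF1 at 0.81 to 2.03 TPM fell short in at least 1 library. DKK4, SFRP4, SOST and LGR6 did not exceed 0.48 TPM, and SFRP5 was at 0 TPM in every library.

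Of the 56 genes 46 passed the filter on low counts for a test of spread between libraries, which asked whether a gene varied more than genes of like abundance. Adjusted over all 17046 genes tested (edgeR, Benjamini-Hochberg), 2 of the 46 (4.35%) were called, against 1.59% of all genes. WNT3A had a range of 2.10 log2 CPM between its highest and lowest library (adjusted p = 0.0118, edgeR), and NKD1 a range of 1.68 (adjusted p = 0.00873, edgeR). For both, replicate 1 was the lowest library and replicate 2 the highest. Both calls were lost without replicate 1 (adjusted p = 0.819 for WNT3A and 0.114 for NKD1, edgeR) and without replicate 2 (0.554 and 0.658). Then 0 of 48 and 0 of 46 members were called, and 8 and 4 had an unadjusted p under 0.05. Over all genes 117 of 17493 and 95 of 17228 were called, and 868 and 923 had an unadjusted p under 0.05.

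NKD1 also missed the threshold after the correction for length (adjusted p = 0.146, edgeR) and at a common dispersion (0.0775), while WNT3A kept its call in both. RSPO4 and LRP6 came closest among the others, with ranges of 2.54 and 1.27 log2 CPM (adjusted p = 0.0515 and 0.0600, edgeR). RSPO4 was called after the correction for length (adjusted p = 0.0306, edgeR). Of the 46 other pathway genes 41 were tested and 0 called in edgeR, with 3 at an unadjusted p under 0.05. Over all 17046 genes tested 1253 were under it. Under other settings, APC2 was called after the correction for length (adjusted p = 1.719e-05, edgeR) and DKK2 at a common dispersion (0.0279). Both were called without replicate 1 (adjusted p = 0.0234 for APC2 and 0.0106 for DKK2, edgeR). Of the 17 targets 16 were tested and only NKD1 was called, with 6 at an unadjusted p under 0.05 (edgeR). The target APCDD1 was called after the correction for length (adjusted p = 0.0246, edgeR) and without replicate 1 (1.906e-05). In the test as first set, where 271 of all 17046 genes were called, 7 of 31 marker genes were. The mesenchyme markers PDGFRA (1.83 log2 CPM) and COL1A1 (1.68) and the neuronal markers STMN2 (2.50), ELAVL4 (2.38) and NEFM (1.63) were 5 of them (adjusted p between 0.000325 and 0.00966, edgeR), the others being HES5 and SOX3, and their part in the spread of WNT3A and NKD1 was not tested.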

How the data were processed

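Libraries of polyadenylated RNA from 3 replicates of 1 group were used as the sample titles give them. RSEM 1.3.1, STAR 2.7.11a and Trim Galore 0.6.10 are listed, without role or order, in the submitters' processing notes, as is GRCh38. Annotation release and strandedness: not given in the sources used here. Each deposited table, per the file headers, holds RSEM expected counts (estimated reads per gene, not normalized), TPM (the authors' values, scaled for effective length and library), and FPKM; the deposited FPKM values were not used. RSEM divides reads that fit several genes, so close copies and overlapping genes are uncertain. Per library 86.8% to 87.8% of expected counts were whole numbers.

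The members, gene lists, pairs, tests and naming rule were chosen with earlier results of these data known. Every member may be named. Of the other pathway genes and targets, each list names its 2 highest genes by mean TPM, its undetected genes and those called for excess spread. The targets MYC, TNFRSF19 and CD44 are named outside this rule, because of their values. Marker lists covered neural progenitor, pluripotency, neural crest, mesenchyme, neuron, endothelium and microglia, with 1 of 4 endothelial markers detected.

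Spread was tested in edgeR 4.0.16 (R 4.3.3) after rounding the expected counts, with filterByExpr and TMM scaling, by comparing the residual deviance of an intercept-only fit with a chi-square at the trended dispersion, adjusted by Benjamini-Hochberg at 0.05. The test was also run on simulated counts drawn at the trended dispersion that it assumes. That run cannot show how the test treats genes whose own dispersion departs from the trend. The common biological coefficient of variation was 22.6%. DESeq2 1.42.0 gave alternative size factors. Gene types and exon overlaps came from GENCODE release 29, matched for 92.8% of identifiers, and coordinates and promoters from RefSeq (GRCh38.p14). Between genes, differences are of log2(TPM + 1), and those of low genes are understated on that scale. Python 3.11.15, numpy 2.4.6, pandas 2.3.3, scipy 1.17.1 and matplotlib 3.10.9 were used.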

Additional observations from a re-analysis of the deposited data

How the results depend on the processing

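Members detected numbered 39 at a TPM minimum of 1, 43 at 0.5, 28 at 5 and 46 at an expected count of at least 10. The share of all genes detected is given for a TPM minimum of 1 only. At a TPM minimum of 5, 3 ligands and 6 frizzled genes were detected. R-spondin and LGR genes numbered 4 at a minimum of 0.5 and 5 at an expected count of at least 10, and 1 to 2 when 1 library was left out. By share of expected counts, which does not scale for length, LEF1 held 31.1% of TCF/LEF, FZD10 16.2% of frizzled (FZD3, with its long transcripts, 30.6%) and WNT5A 46.8% of the ligands. Of 105 pair differences under alternatives 101 kept their sign. The others were LRP6 minus LRP5 in log2(CPM + 1) (1.15) and without replicate 1 (0.28; the range over single libraries left out was -0.297 to 0.285), GSK3B minus GSK3A (0.40) and FZD5 minus FZD8 (0.39) in log2(CPM + 1). Members called for excess spread numbered 0 to 2 when 1 library was left out, with 95 to 117 called over all genes. At a common dispersion 3 members were called (NOTUM, RSPO4 and WNT3A), against 332 of all 17046 genes, and the cause was not tested. With 2 libraries the spread rests on 1 difference per gene. No paired analysis was possible because the series has 1 group. Depth limits genes below about 0.1 TPM, which rest on a few counts.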
